A study of Mus musculus with 20 samples.

Results

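The matrix metalloproteinases (MMPs), the ADAMTS proteases and the tissue inhibitors of metalloproteinases (TIMPs) were described in mouse pancreatic tumours of 3 genotypes. Members were all protein-coding genes of the deposited table whose symbol was Mmp with a number, Adamts with a number, or Timp1 to Timp4. The rule used symbols only and no measured value. It gave 42 of 20636 genes, of which 19 were MMPs, 19 were ADAMTS genes and 4 were TIMPs. Of the 42, 40 reached the minimum level for a test, and Mmp20 and Adamts13 did not. Another 3 genes of the annotation that match the rule, Mmp1b, Mmp21 and Mmp27, were not analysed here.

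RNA was sequenced from pancreatic ductal adenocarcinomas that arose from acinar cells, 5 tumours in each of 3 groups. Among the alleles that every mouse carried were the Rosa26LSL-tdTomato/LSL-tdTomato reporter and Ptf1aCreER, a tamoxifen-dependent Cre driven from an acinar cell gene. KPT mice were in addition Trp53fl/fl, KAT mice were Arf-fl/fl (a floxed Cdkn2a-Arf allele), and KPAT mice were Trp53fl/fl and Arf-fl/fl. All received 5 mg of tamoxifen by mouth each day for 3 days, beginning in adulthood at an age of 8 to 10 weeks, and were kept until illness, so that the age at collection is not given. Since the shared alleles were present in every group, the genotypes differ in Trp53 and Arf: KPAT and KPT differ in Arf, KPAT and KAT in Trp53, and KAT and KPT in both. Any other difference between the groups, such as age at collection, cannot be told apart from genotype here. The labels number the tumours but do not say that each came from its own mouse, so the p-values measure the spread between these samples. The KT group of the series, with neither Trp53 nor Arf floxed, was not analysed here.

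MMPs are zinc-dependent proteases that are made as inactive precursors and cut collagens, gelatins, laminins and many cell surface proteins. ADAMTS proteases are secreted relatives that cut proteoglycans such as versican and aggrecan or trim the ends of procollagens. TIMPs bind the active site of MMPs and block it, and Timp3 also blocks ADAMTS proteases. In pancreatic ductal adenocarcinoma much of the tumour mass is collagen-rich stroma, and both its fibroblasts and the tumour cells can make proteases of these families.

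Reads recovered from the deposited values summed to 14696138 to 26248484 a library over its genes. Levels are the deposited normalized counts, in which 1 unit stood for 19.478 reads (geometric mean over the 15 libraries). Trp53 was at 22.7 to 26.3 (KPT), 32.9 to 57.2 (KPAT) and 98.98 to 148 (KAT), so that no tumour of a group with floxed Trp53 reached the KAT range. Cdkn2a values cover all transcripts of the gene and do not check the loss of Arf. Ductal and epithelial markers (10 genes such as Krt19 and Epcam) were present in every tumour, with summed levels of 7283 to 19531. Acinar markers summed to 19.2 to 1079, with the highest value in KAT 1, and intestinal markers were highest in KPT 1, at a sum of 4938. The 12 fibroblast markers summed to 2156 to 6026 in KPT tumours, 8334 to 12322 in KAT tumours and 6982 to 16146 in KPAT tumours, so that KPT did not overlap with either other group. In the order KPT, KAT and KPAT, 12 macrophage markers summed to 675 to 1129, 1148 to 2031 and 756 to 1349, and 12 neutrophil markers to 231 to 1003, 75.3 to 325 and 31.2 to 384. No gene of these marker lists was at 0 in a whole group.

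Many ADAMTS genes, some MMPs and 2 of 4 TIMPs were higher in KAT and KPAT tumours than in KPT tumours. Among the 40 tested members, 15 rose and 0 fell in KPAT against KPT, and 18 rose and 0 fell in KAT against KPT. Over all 16648 tested genes, 16.5% were called in the comparison of KPAT with KPT (9.13% higher, 7.4% lower) and 28.9% in that of KAT with KPT (15.6% higher, 13.3% lower). Calls are limma tests of log2 levels with adjusted p under 0.05 over all tested genes. That no member fell in KAT depended on the fit: DESeq2 on recovered reads called 24 members higher and 2 lower (Mmp7 with an adjusted p of 0.0195 and Mmp15 with 0.0453) where it called 34.3% of all genes, and limma with array weights called 25 higher and 1 lower (Mmp7, adjusted p = 0.0375) where it called 38.4%. Leaving out KPT 4 or KAT 3 also gave 1 member lower in KAT, which was Mmp7. Without KAT 2 there was 1 as well, which was neither Mmp7 nor Mmp15. The median log2 fold change of the members was 0.98 in KPAT and 1.10 in KAT, beside 0.016 and 0.026 for all tested genes. By family, 4 of 18 MMPs (22.2%), 9 of 18 ADAMTS genes (50%) and 2 of 4 TIMPs rose in KPAT. In KAT, 5 MMPs (27.8%), 11 ADAMTS genes (61.1%) and 2 TIMPs rose. The share of MMPs called in KAT was thus near the 28.9% of all genes called in either direction, and in KPAT it stood beside 16.5%. A negative log2 fold change was seen for 6 of 18 MMPs in each comparison. Both comparisons share the same KPT tumours and are not independent of each other. In bulk tumour RNA, fewer cells of a type and less RNA per cell cannot be told apart. With the mean log2 level of the fibroblast markers as a covariate, 0 of 40 members were called in KPAT and 1 (Adamts6) in KAT, where 1.51% and 5.27% of all genes were called. The member medians in those fits were 0.32 and 0.41. On the mean log2 scale of the fibroblast covariate, KPAT 3 (11.51) lay below KPT 2 (11.74). All other KPAT tumours and all KAT tumours were above every KPT tumour. With KPT overlapping the other groups only through KPAT 3, genotype and fibroblast level cannot be told apart fully in these fits. With the neutrophil markers as the covariate, 4 members were called in KPAT and 18 in KAT, where 3.42% and 24.3% of all genes were called.

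**Figure D1:**
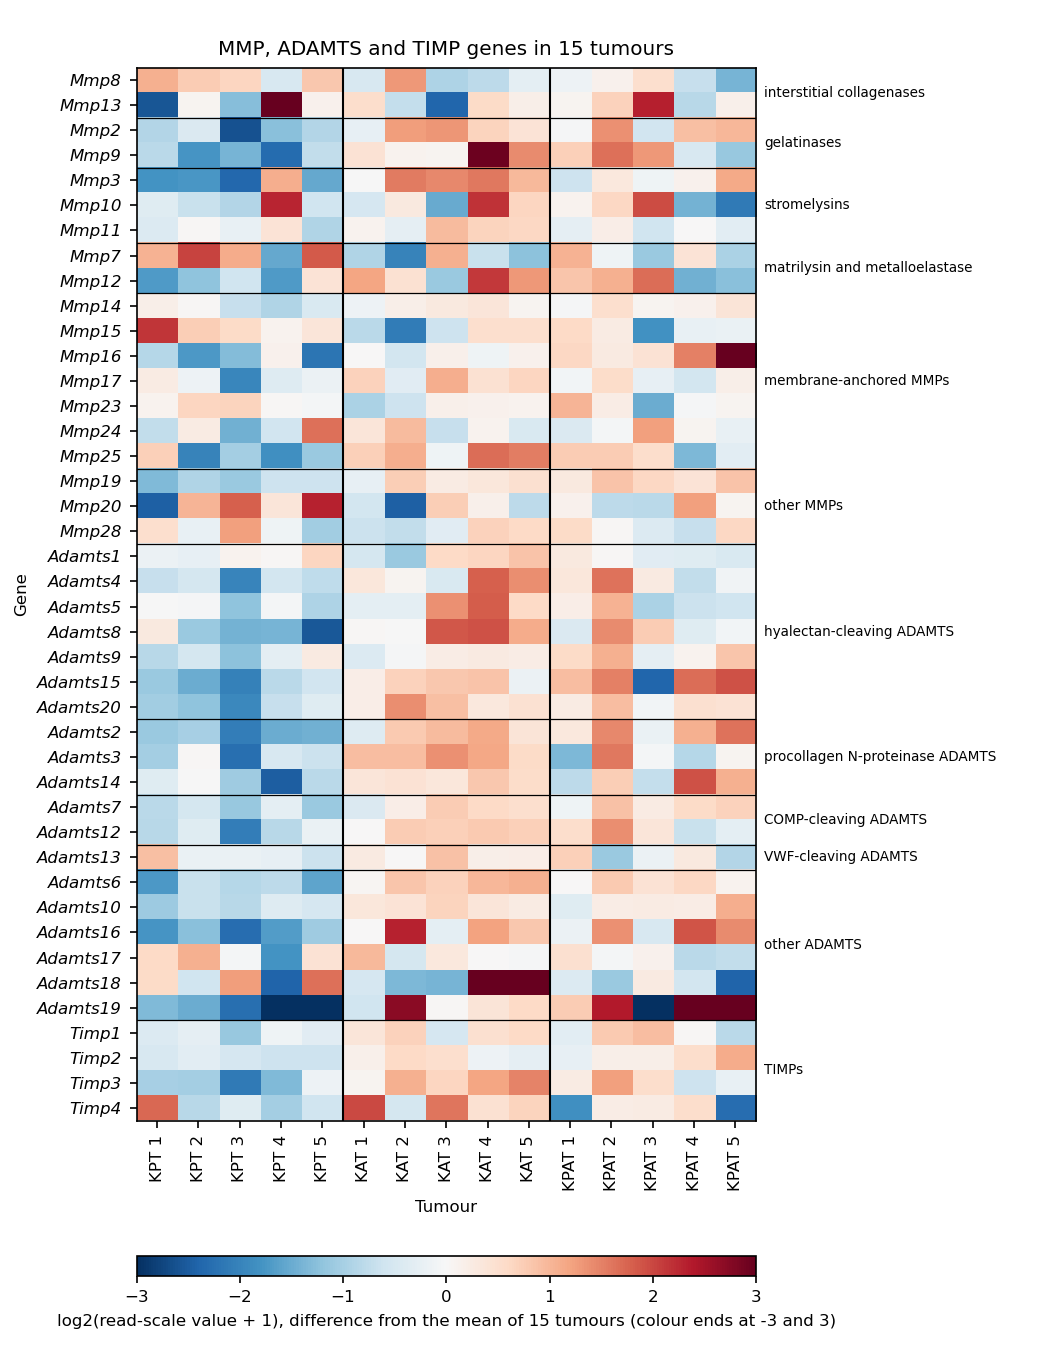
Level of the 42 members (lines, by role) in 15 tumours (columns), as the log2 of the level on the scale of reads plus 1, minus the mean of the gene over all tumours. ADAMTS genes and TIMPs are mostly below their mean in the 5 KPT tumours, while Mmp7 and Mmp8 are above theirs in 4 and Mmp15 in 5 of them.

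The expressed set was dominated by few genes. Per kilobase of exon, averaged over 15 tumours, the highest MMP levels were those of Mmp7 (282 units per kb), Mmp2 (141), Mmp14 (113), Mmp15 (23.6) and Mmp23 (19.3). The highest ADAMTS levels per kilobase were far lower, with Adamts1 at 19.0, Adamts2 at 13.2, Adamts4 at 7.79, Adamts10 at 6.57 and Adamts7 at 6.34. Timp2 (164) and Timp1 (141) were in the range of the leading MMPs, Timp3 was at 38.9, and Timp4 was close to the floor at 0.12. Within a genotype, the steadiest members were Mmp14, Mmp19, Adamts10 and Timp2, with mean coefficients of variation of 20.4%, 20.8%, 23.1% and 24.4%. Adamts19, Mmp10 and Mmp13 varied most, at 117%, 110% and 103%.

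The gelatinases Mmp2 and Mmp9, which degrade denatured collagen and basement membrane collagen, both rose. Levels below are in deposited units, for tumours 1 to 5 of each group in that order. Mmp2 (chr8:92827291-92853420, GRCm38), largely a product of fibroblasts, was at 204, 278, 61.3, 157 and 202 in KPT, 313, 883, 927, 589 and 498 in KAT and 363, 965, 251, 699.7 and 738 in KPAT. All KAT tumours were above all KPT tumours, and in KPAT only tumour 3 lay inside the KPT range. Mmp2 rose by 1.74 on the log2 scale in KPAT (SE 0.44, adjusted p = 0.0163) and by 1.88 in KAT (SE 0.44, adjusted p = 0.00601). With the fibroblast covariate the difference was -0.12 in KPAT and -0.18 in KAT. Mmp9 (chr2:164940780-164955850), a gelatinase of neutrophils and macrophages, was at 16.0, 8.19, 10.6, 5.64 and 16.7 in KPT, 37.7, 30.3, 29.8, 216 and 75.5 in KAT and 46.2, 88.7, 69.0, 20.2 and 12.8 in KPAT. KAT 4 stood far above the rest, the KAT and KPT ranges did not overlap, and KPAT 5 lay within the KPT range. Mmp9 rose by 1.82 on the log2 scale in KPAT (SE 0.60, adjusted p = 0.0487) and by 2.40 in KAT (SE 0.60, adjusted p = 0.00874). The KPAT call for Mmp9 was lost in 11 of 15 fits that left out 1 tumour (KPT 1 to 4, KAT 1, 2, 3 and 5, and KPAT 1 to 3), with an adjusted p of up to 0.122. The neutrophil marker sum had a median of 533 in KPT, 122 in KAT and 187 in KPAT, and the macrophage sum in KAT lay above the KPT range. With the neutrophil covariate Mmp9 differed by 2.75 in KPAT (adjusted p = 0.0284) and by 2.98 in KAT (adjusted p = 0.00229); the part of macrophages was not tested.

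**Figure D2:**
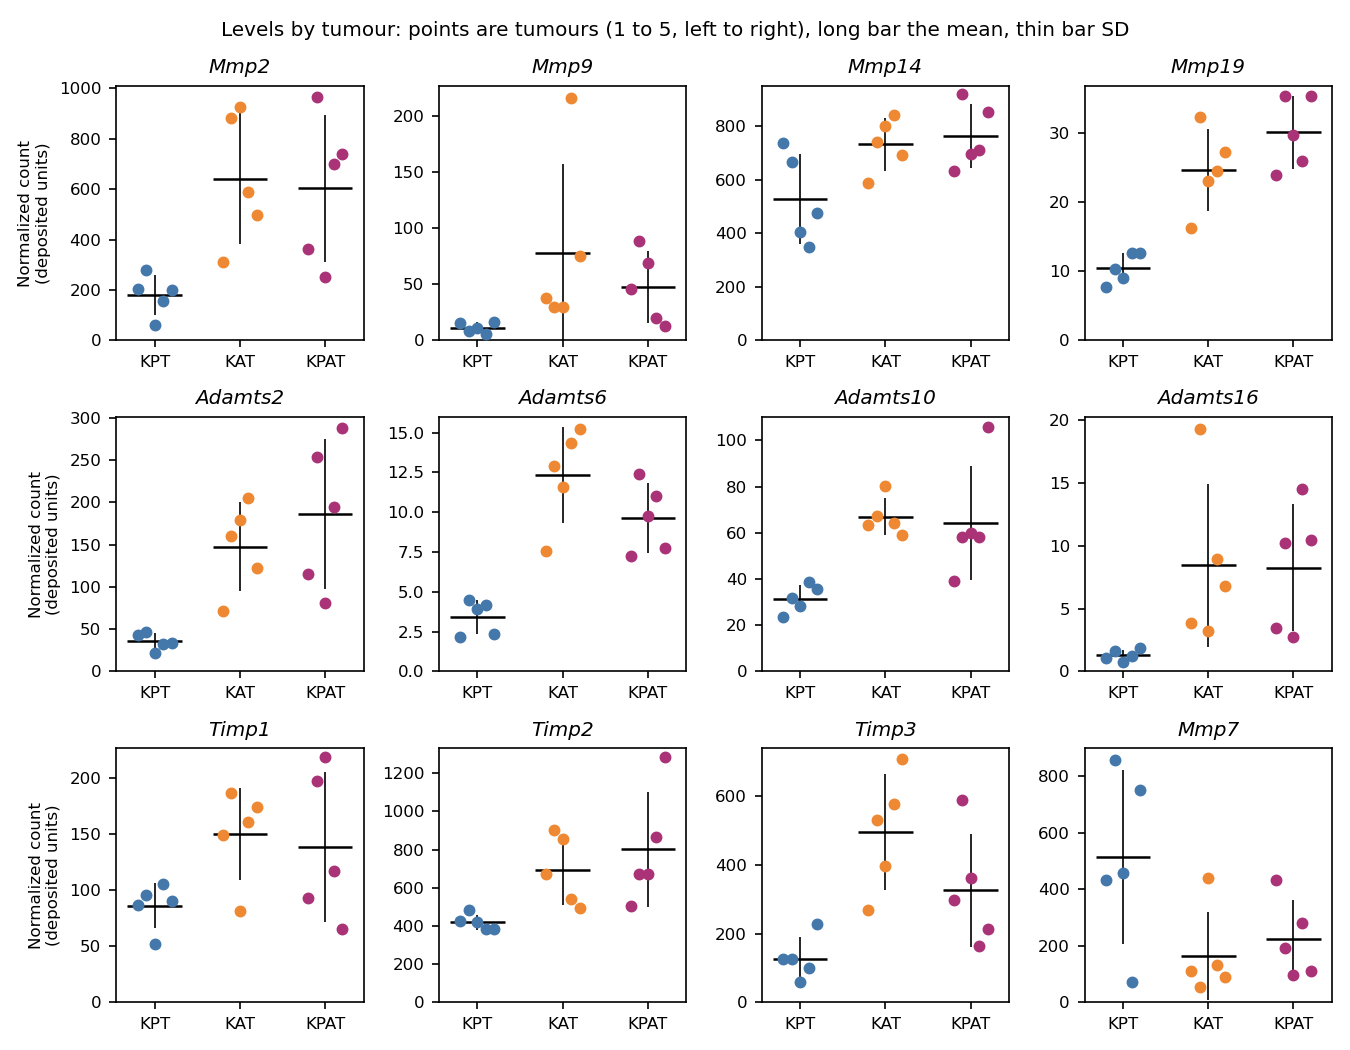
Deposited normalized counts of 12 members (linear axes from 0) in KPT, KAT and KPAT tumours; points are tumours, the long bar is the mean and the thin bar the SD of 5 tumours. Mmp19, Adamts2, Adamts6, Adamts10, Adamts16 and Timp2 show no overlap between KPT and either other group, while Mmp7 points the other way with wide overlap.

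Membrane-anchored MMPs act at the cell surface, where Mmp14 activates the precursor of Mmp2 together with Timp2. Mmp14 (chr14:54431612-54445364) was at 737, 668, 403, 351 and 474 in KPT, 589, 740.1, 800.4, 842 and 693 in KAT and 634, 922, 695, 710.2 and 853 in KPAT. KPT 1 and KPT 2 lay among the KAT and KPAT tumours, while the other 3 KPT tumours were below them all. Mmp14 differed from KPT by 0.58 on the log2 scale in KPAT (SE 0.19, adjusted p = 0.0524) and by 0.52 in KAT (SE 0.19, adjusted p = 0.0534). Neither value passed the threshold; without KPT 1 or without KPT 2 both did, without KPAT 1 the KPAT value did and without KAT 1 the KAT value did, with adjusted p as low as 0.0252 in KPAT and 0.019 in KAT. Mmp16 (chr4:17852893-18119145), a membrane protease of mesenchymal and neural cells, was at 0.752, 0.384, 0.54, 1.54 and 0.267 in KPT, 1.41, 0.933, 1.57, 1.26 and 1.54 in KAT and 2.17, 1.70, 1.91, 4.09 and 15.5 in KPAT. Every KPAT tumour was above every KPT and every KAT tumour, and KPAT 5 was the highest. Mmp16 rose by 2.44 on the log2 scale in KPAT (SE 0.56, adjusted p = 0.0111), and its difference in KAT was 1.11 (SE 0.56, adjusted p = 0.15). Leaving out single tumours kept the KPAT call, with log2 fold changes of 1.90 to 2.77. Mmp25, a membrane protease of leukocytes, was at 1.55, 0.192, 0.432, 0.22 and 0.401 in KPT, 1.55, 2.03, 0.835, 3.05 and 2.80 in KAT and 1.62, 1.59, 1.36, 0.335 and 0.73 in KPAT. KPT 1 was level with KAT 1 and above KAT 3, and the other 4 KPT tumours were below all KAT tumours. Reads of Mmp25 were few, at 3 to 31 in KPT tumours and 16 to 70 in KAT tumours. Mmp25 rose by 2.03 on the log2 scale in KAT (SE 0.57, adjusted p = 0.0161), and its difference in KPAT was 1.13 (SE 0.57, adjusted p = 0.181).

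Mmp15, an epithelial relative of Mmp14, was at 446, 168, 149.7, 109 and 130.3 in KPT, 57.6, 23.5, 65.8, 143 and 143 in KAT and 152, 119.8, 28.7, 86.6 and 87.3 in KPAT. KPT 1 had the highest level and KAT 2 and KPAT 3 the lowest, and the groups overlapped. Mmp15 differed from KPT by -1.06 on the log2 scale in KPAT (SE 0.53, adjusted p = 0.181) and by -1.29 in KAT (SE 0.53, adjusted p = 0.0814). Mmp23, an MMP with its own type of membrane anchor, was at 45.1, 64.8, 66.4, 42.6 and 39.9 in KPT, 21.7, 27.1, 46.7, 45.8 and 45.3 in KAT and 84.3, 48.5, 14.9, 40.7 and 44.3 in KPAT. Its groups overlapped throughout. Mmp23 differed from KPT by -0.32 on the log2 scale in KPAT (SE 0.36, adjusted p = 0.584) and by -0.51 in KAT (SE 0.36, adjusted p = 0.31). Mmp17 ranged from 0.702 to 6.16 and Mmp24 from 0.756 to 6.82 over the 15 tumours, both without a call. The Mmp17 difference in KAT, 1.00 (SE 0.39, adjusted p = 0.0672), passed the threshold without KPT 1 or without KAT 2, with an adjusted p as low as 0.0352. Mmp24 shares 13.6% of its exon bases with BC029722 on the opposite strand, which was at 18.3 to 32.9, so their reads cannot be told apart if reads were counted without strand.

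Mmp19 (chr10:128790910-128800824), a protease of basement membrane proteins, had the smallest adjusted p of all members in KPAT. It was at 7.67, 10.4, 9.01, 12.6 and 12.7 in KPT, 16.3, 32.3, 23.0, 24.5 and 27.2 in KAT and 23.9, 35.3, 29.8, 26.0 and 35.4 in KPAT. All 10 KAT and KPAT tumours were above all 5 KPT tumours. Mmp19 rose by 1.53 on the log2 scale in KPAT (SE 0.20, adjusted p = 0.00126) and by 1.22 in KAT (SE 0.20, adjusted p = 0.000755). Both calls held in every fit that left out 1 tumour. With the fibroblast covariate its differences were 1.29 (adjusted p = 0.051) and 0.96 (adjusted p = 0.09). Of the Mmp19 exon bases, 22.3% are shared with Tmem198b on the opposite strand. Tmem198b had a level similar to that of Mmp19 and rose as well, from a mean of 12.9 in KPT to 24.7 in KAT and 24.4 in KPAT, so part of the Mmp19 change is uncertain. Mmp28, epilysin, ranged from 12.2 to 59 with no call, and shares 12% of its exon bases with 1700020L24Rik on the other strand. Mmp20, the enamel protease, was below the test minimum at 0 to 1.34.

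Stromelysins cut proteoglycans, laminin and fibronectin and can activate other MMPs. Mmp3 (stromelysin 1) was at 3.11, 3.26, 2.10, 23.5 and 3.74 in KPT, 10.8, 32.3, 29.9, 33.0 and 21.7 in KAT and 7.07, 13.8, 10.0, 11.9 and 24.1 in KPAT. KPT 4 lay within the KAT range, and the other 4 KPT tumours were below every KAT and KPAT tumour. Mmp3 rose by 2.38 on the log2 scale in KAT (SE 0.54, adjusted p = 0.00569), and its difference in KPAT was 1.43 (SE 0.54, adjusted p = 0.0844). Without KPT 4 the adjusted p in KPAT was 0.00419. Mmp11 (stromelysin 3, a stromal cell product) ranged from 15.4 to 55.2, without a call against KPT. Its KAT difference of 0.63 (SE 0.26, adjusted p = 0.0787) passed without KPT 4 or without KAT 2, with an adjusted p as low as 0.0294.

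Mmp7 (matrilysin), a small MMP made by epithelial cells and known from pancreatic ductal metaplasia, was the most abundant member per kilobase. It was at 432, 858, 459.5, 72.8 and 753 in KPT, 112, 52.9, 439.9, 133 and 90.1 in KAT and 435, 192, 96.9, 281 and 110.0 in KPAT. Apart from KPT 4, the KPT tumours were at 432 or more, a level that only KAT 3 and KPAT 1 also reached, and KAT 3 stood apart from the other KAT tumours. Mmp7 differed from KPT by -1.04 on the log2 scale in KPAT (SE 0.66, adjusted p = 0.293) and by -1.64 in KAT (SE 0.66, adjusted p = 0.0747). Neither value passed the threshold. Without KPT 4 the KAT value passed with an adjusted p of 0.00889, and it also passed without KAT 3, with array weights and in DESeq2. The summed epithelial markers were at 11419 to 19531 in the KPT tumours, against 7283 to 11986 (KAT) and 8196 to 10999 (KPAT); their part was not tested. The metalloelastase Mmp12, a macrophage protease, ranged from 11.8 to 167, and its KAT difference was 1.75 (SE 0.67, adjusted p = 0.0637). It passed in KAT without KPT 5 or without KAT 3, with an adjusted p as low as 0.0235. The collagenases Mmp8, a neutrophil enzyme, and Mmp13 ranged from 0.973 to 6.53 and from 3.11 to 152, with no call in the main fit.

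**Figure D3:**
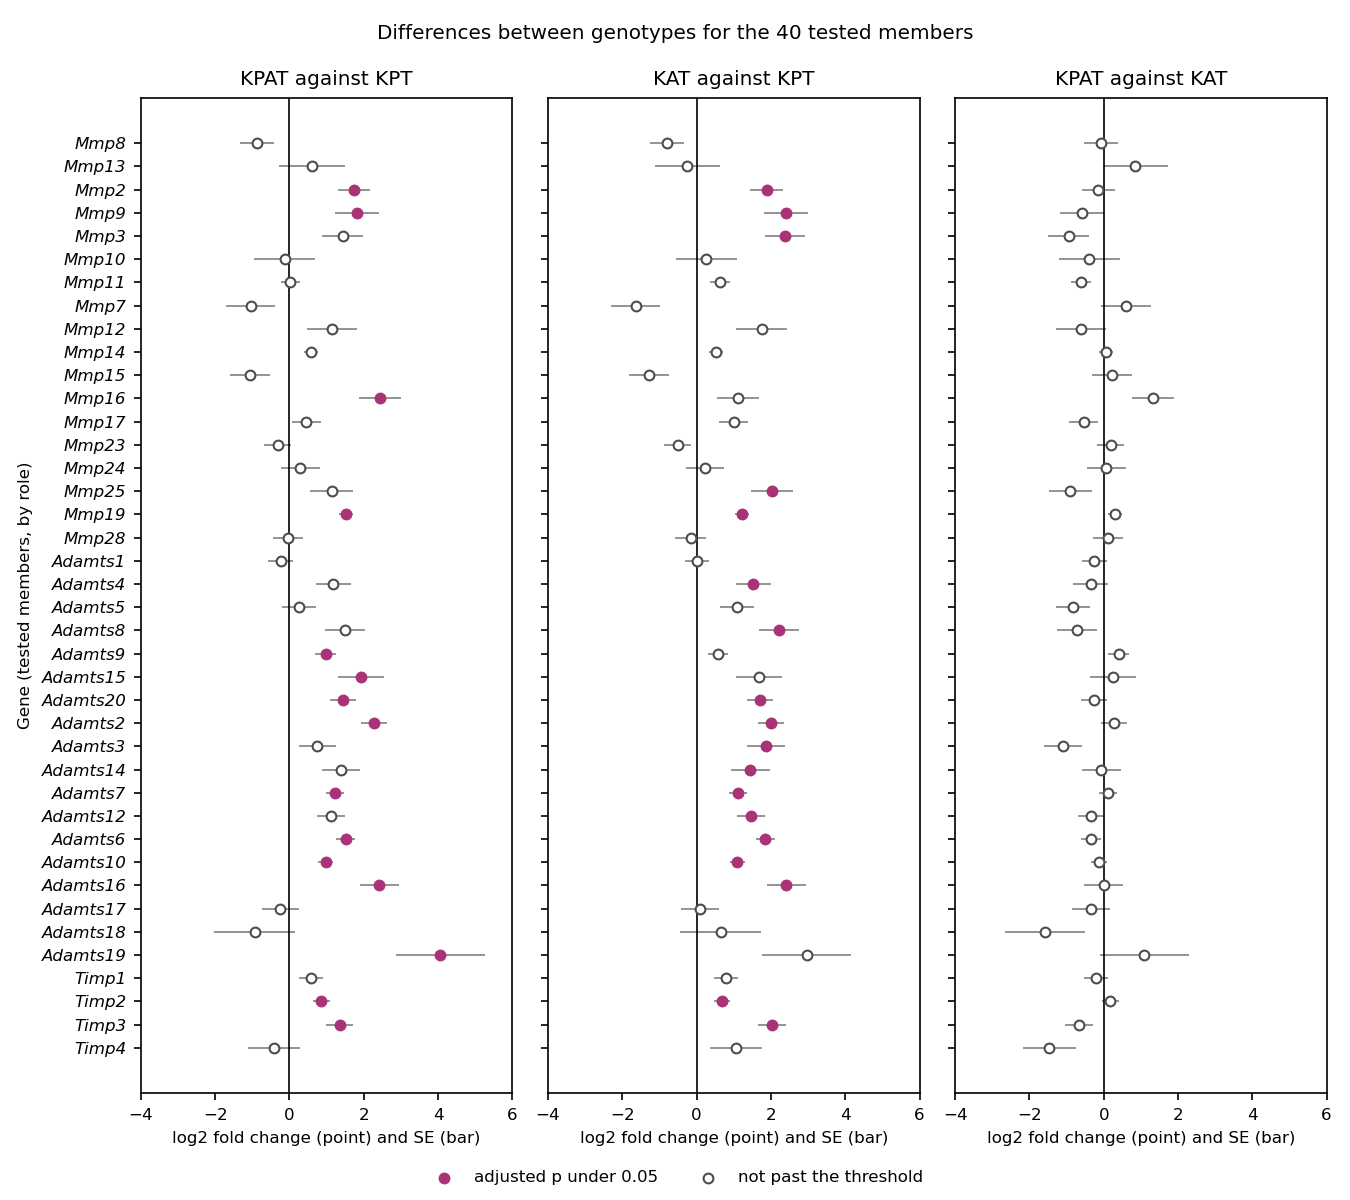
Log2 fold change (point) and its SE (bar) of the 40 tested members, by role, for the 3 comparisons; filled points passed an adjusted p of 0.05. The filled points, 15 for KPAT and 18 for KAT against KPT, all lie to the right of 0, and none is filled for KPAT against KAT.

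The procollagen N-proteinases Adamts2, Adamts3 and Adamts14 remove the amino-terminal propeptide of fibrillar collagens. All 3 rose in KAT, and Adamts2 rose in KPAT. Adamts2 (chr11:50602084-50807573) was at 43.1, 46.6, 21.9, 32.8 and 33.9 in KPT, 71.2, 160.1, 179, 205 and 122 in KAT and 115, 254, 80.5, 194 and 288 in KPAT. Every KAT and KPAT tumour was above every KPT tumour. Adamts2 rose by 2.27 on the log2 scale in KPAT (SE 0.35, adjusted p = 0.00235) and by 2.00 in KAT (SE 0.35, adjusted p = 0.00128). These calls held in every fit that left out 1 tumour. With the fibroblast covariate the Adamts2 differences were 0.86 (adjusted p = 0.116) and 0.43 (adjusted p = 0.403). Adamts3 was at 0.702, 1.53, 0.27, 1.06 and 0.936 in KPT, 2.86, 2.85, 3.92, 3.39 and 2.25 in KAT and 0.555, 4.56, 1.42, 0.805 and 1.58 in KPAT. KAT was above KPT without overlap, while in KPAT only tumour 2 reached the KAT range. Adamts3 rose by 1.86 on the log2 scale in KAT (SE 0.51, adjusted p = 0.0147), and its difference in KPAT was 0.75 (SE 0.51, adjusted p = 0.327). Adamts14 was at 2.26, 2.88, 1.35, 0.484 and 1.65 in KPT, 3.75, 3.95, 3.71, 5.14 and 4.28 in KAT and 1.67, 4.85, 1.74, 11 and 6.14 in KPAT. KAT was tightly grouped and above KPT, and KPAT ranged from KPT levels to well above KAT. Adamts14 rose by 1.44 on the log2 scale in KAT (SE 0.52, adjusted p = 0.0484), and its difference in KPAT was 1.38 (SE 0.52, adjusted p = 0.0802). The KAT call for Adamts14 was lost in 11 of 15 fits that left out 1 tumour (all but those without KPT 2, KPAT 1, KPAT 3 or KPAT 4), with an adjusted p of up to 0.111. Without KPAT 1 or without KPAT 3 its KPAT value passed, with an adjusted p as low as 0.0409.

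Adamts7 and Adamts12 cut cartilage oligomeric matrix protein. Adamts7 (chr9:90163069-90208071) was at 20.6, 25, 16.5, 29.3 and 16.7 in KPT, 26.7, 41.6, 61.6, 54.4 and 51.5 in KAT and 33.1, 66.0, 42.5, 53.7 and 58.4 in KPAT. The KPAT range was above the KPT range, and of the KAT tumours only KAT 1 lay inside it. Adamts7 rose by 1.23 on the log2 scale in KPAT (SE 0.24, adjusted p = 0.0062) and by 1.10 in KAT (SE 0.24, adjusted p = 0.00455). It shares 1.94% of its exon bases with Tbc1d2b on the opposite strand, and Tbc1d2b rose too, by 0.89 in KPAT and 0.77 in KAT. Adamts12 was at 19.2, 26.4, 8.10, 19.2 and 29.7 in KPT, 34.5, 57.7, 56.1, 59 and 56.5 in KAT and 49.2, 89.6, 44.3, 21.7 and 27.7 in KPAT. KAT did not overlap with KPT, and KPAT 4 and KPAT 5 lay within the KPT range. Adamts12 rose by 1.46 on the log2 scale in KAT (SE 0.37, adjusted p = 0.0103), and its difference in KPAT was 1.13 (SE 0.37, adjusted p = 0.0511). Without KPT 5, KPAT 4 or KPAT 5 the KPAT value passed, with an adjusted p as low as 0.0267.

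The hyalectan-cleaving group cuts versican, aggrecan and related proteoglycans. Adamts1 was its most abundant member, at 84.1, 79.9, 101, 96.3 and 148 in KPT, 65.0, 43.5, 142, 147 and 172 in KAT and 116, 96.7, 74.9, 72.9 and 69.1 in KPAT. The 3 groups overlapped. Adamts1 differed from KPT by -0.24 on the log2 scale in KPAT (SE 0.33, adjusted p = 0.651) and by 0.01 in KAT (SE 0.33, adjusted p = 0.981). Adamts4 (aggrecanase 1) was at 18.2, 20.4, 7.50, 20.03 and 17.5 in KPT, 37.2, 31.3, 21.4, 102 and 77.4 in KAT and 37.2, 90.9, 35.7, 17.6 and 27.5 in KPAT. KAT was above KPT without overlap, and KPAT 4 lay within the KPT range. Adamts4 rose by 1.53 on the log2 scale in KAT (SE 0.46, adjusted p = 0.0239), and its difference in KPAT was 1.18 (SE 0.46, adjusted p = 0.0948). The KAT call was lost without KPT 3, KAT 4 or KAT 5, with an adjusted p of up to 0.0646. Adamts5 (aggrecanase 2), its functional counterpart, ranged from 5.72 to 47.1 without a call. Its KAT difference, 1.09 (SE 0.46, adjusted p = 0.0873), passed without KAT 2 (adjusted p = 0.0487), with array weights (adjusted p = 0.0266) and in DESeq2 (adjusted p = 0.0258), and over all settings its adjusted p reached 0.833.

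Adamts8, an aggrecan-cleaving relative, was at 3.81, 1.41, 1.13, 1.14 and 0.49 in KPT, 3.19, 3.07, 11.4, 11.9 and 6.76 in KAT and 2.27, 8.41, 5.34, 2.42 and 2.92 in KPAT. KPT 1 overlapped with the lower KAT and KPAT tumours, and the other KPT tumours did not. Adamts8 rose by 2.22 on the log2 scale in KAT (SE 0.55, adjusted p = 0.00839), and its difference in KPAT was 1.498 (SE 0.55, adjusted p = 0.0725). Without KPT 1 the KPAT value passed with an adjusted p of 0.0336. Of its exon bases, 10.6% are shared with the antisense gene Gm29724, for which no value was used. Adamts9, a versican-cleaving protease, was at 17, 21.0, 12.9, 24.5 and 36.6 in KPT, 22.9, 29.4, 35.5, 36.4 and 35.1 in KAT and 45, 62.8, 25.2, 32.3 and 54.0 in KPAT. The KPT and KPAT ranges overlapped through KPT 5. Adamts9 rose by 0.98 on the log2 scale in KPAT (SE 0.28, adjusted p = 0.0279), and its difference in KAT was 0.58 (SE 0.28, adjusted p = 0.133). The KPAT call was lost on leaving out KPT 1, 2 or 3 or KPAT 1, 2 or 5, with an adjusted p of up to 0.0756. Adamts20, its close relative, was at 0.652, 0.576, 0.324, 0.837 and 1.07 in KPT, 1.59, 3.73, 2.66, 1.74 and 1.92 in KAT and 1.67, 2.70, 1.31, 1.95 and 1.89 in KPAT. All KAT and KPAT tumours were above all KPT tumours, at low levels of 6 to 73 reads over the 15 tumours. Adamts20 rose by 1.45 on the log2 scale in KPAT (SE 0.35, adjusted p = 0.0135) and by 1.70 in KAT (SE 0.35, adjusted p = 0.00299).

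Adamts15, a versican-cleaving protease that lies next to Adamts8 on chromosome 9, was at 14.0, 10.7, 7.34, 17.2 and 20.4 in KPT, 34.4, 48.9, 53.1, 54.9 and 26.7 in KAT and 57.4, 85.6, 5.72, 96.3 and 114 in KPAT. KPAT 3 was below every other tumour, while the other 4 KPAT tumours were above every other tumour. Adamts15 rose by 1.93 on the log2 scale in KPAT (SE 0.63, adjusted p = 0.0483), and its difference in KAT was 1.68 (SE 0.63, adjusted p = 0.057). The KPAT call was lost in 14 of 15 fits that left out 1 tumour, with an adjusted p of up to 0.112; without KPAT 3 it was 0.000684. Without KPAT 3 the KAT value passed too, at an adjusted p of 0.0013. With the fibroblast covariate the differences were -0.15 in KPAT and -0.63 in KAT.

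Of the remaining ADAMTS genes, Adamts6 and Adamts10, which act on fibrillin-rich microfibrils, rose in both comparisons. Adamts6 (chr13:104287835-104496695) was at 2.16, 4.48, 3.94, 4.18 and 2.36 in KPT, 7.55, 12.9, 11.6, 14.3 and 15.2 in KAT and 7.22, 12.4, 9.75, 11 and 7.72 in KPAT. The lowest KAT and KPAT tumours were above the highest KPT tumour. Adamts6 rose by 1.51 on the log2 scale in KPAT (SE 0.26, adjusted p = 0.00344) and by 1.85 in KAT (SE 0.26, adjusted p = 0.000371). Its KAT difference with the fibroblast covariate was 1.73 (adjusted p = 0.0386), the only member still called there; in KPAT it was 1.40 (adjusted p = 0.0925). Adamts10 (chr17:33524204-33553782) was at 23.4, 31.8, 28.3, 38.6 and 35.5 in KPT, 63.4, 67.2, 80.3, 64.4 and 59.2 in KAT and 39.3, 58.1, 59.9, 58.4 and 106 in KPAT. The lowest KPAT tumour, KPAT 1, was only just above the highest KPT tumour, KPT 4. Adamts10 rose by 0.97 on the log2 scale in KPAT (SE 0.21, adjusted p = 0.00847) and by 1.10 in KAT (SE 0.21, adjusted p = 0.00195). Both genes kept both calls in every fit that left out 1 tumour.

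Adamts16, a fibronectin-cleaving protease, was at 1.10, 1.60, 0.756, 1.19 and 1.83 in KPT, 3.89, 19.3, 3.18, 8.97 and 6.81 in KAT and 3.43, 10.2, 2.78, 14.5 and 10.5 in KPAT. No KAT or KPAT tumour overlapped with KPT. Adamts16 rose by 2.41 on the log2 scale in KPAT (SE 0.52, adjusted p = 0.00878) and by 2.41 in KAT (SE 0.52, adjusted p = 0.00424). Adamts19, a protease without a well described substrate, was at 0.15, 0.128, 0.054, 0 and 0 in KPT, 0.281, 3.24, 0.47, 0.609 and 0.714 in KAT and 0.808, 2.59, 0, 6.37 and 17.1 in KPAT. The values of 0 are tumours without a read, and the 5 KPT tumours held 0 to 3 reads each, so the size of its change depends on the value added before the log. Adamts19 rose by 4.06 on the log2 scale in KPAT (SE 1.198, adjusted p = 0.0324), and its difference in KAT was 2.96 (SE 1.198, adjusted p = 0.0754). With 0.5 or 8 added instead of 1 its KPAT value was 4.41 or 2.58, and edgeR gave 6.29. The call was lost on leaving out any of 3 KPT tumours (3, 4 and 5) or 3 KPAT tumours (2, 4 and 5), with an adjusted p of up to 0.0766. Without KPAT 3 the KAT value passed, at an adjusted p of 0.0147. Adamts17 ranged from 0.176 to 1.60 and Adamts18 from 0 to 3.24, without a call. Adamts18 was at 2.70 and 3.24 in KAT 4 and KAT 5 and under 1 in every other tumour. Adamts13, the von Willebrand factor protease, was below the test minimum at 0.148 to 0.752.

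Of the 4 inhibitors, Timp2 and Timp3 rose in both comparisons. Timp2 (chr11:118301069-118355740), which also takes part in the activation of Mmp2, was at 429, 483, 419.6, 387 and 387 in KPT, 670.3, 900.5, 854, 540.3 and 493 in KAT and 503, 674, 675, 868 and 1287 in KPAT. KPT was tightly grouped and below every KAT and KPAT tumour. Timp2 rose by 0.86 on the log2 scale in KPAT (SE 0.22, adjusted p = 0.0186) and by 0.68 in KAT (SE 0.22, adjusted p = 0.0336). The KAT call was lost without KPT 1, 3, 4 or 5 or KAT 1, 2 or 3, with an adjusted p of up to 0.0815. Timp3 (chr10:86300372-86349506), a matrix-bound inhibitor that also blocks ADAMTS and ADAM proteases, was at 126, 125, 58.3, 101 and 228 in KPT, 268, 531, 396, 579 and 709 in KAT and 298, 589.8, 363, 165 and 215 in KPAT. KAT did not overlap with KPT, and KPAT 4 and KPAT 5 were below KPT 5. Timp3 rose by 1.35 on the log2 scale in KPAT (SE 0.38, adjusted p = 0.0248) and by 2.02 in KAT (SE 0.38, adjusted p = 0.00172). The KPAT call was lost without KPT 3, KPAT 2 or KPAT 3, with an adjusted p of up to 0.0661. Timp3 shares 21.3% of its exon bases with Syn3 on the opposite strand, and Syn3 was at 0.853 to 4.09.

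Timp1, a soluble inhibitor of most MMPs and a growth factor for several cell types, was at 86.6, 96.0, 52.4, 106 and 90.8 in KPT, 149, 187, 81.6, 161 and 174 in KAT and 92.7, 198, 218, 117 and 65.6 in KPAT. KAT 3, KPAT 1 and KPAT 5 lay inside the KPT range. Timp1 differed from KPT by 0.58 on the log2 scale in KPAT (SE 0.32, adjusted p = 0.227) and by 0.78 in KAT (SE 0.32, adjusted p = 0.0758). Without KAT 3 or without KPAT 5 the KAT value passed, with an adjusted p as low as 0.0328. Timp4 was at 1.76, 0.256, 0.378, 0.22 and 0.312 in KPT, 2.11, 0.329, 1.62, 0.696 and 0.824 in KAT and 0.101, 0.593, 0.599, 0.738 and 0.0608 in KPAT. Its levels of 1 to 45 reads per tumour gave no call. Timp4 differed from KPT by -0.41 on the log2 scale in KPAT (SE 0.70, adjusted p = 0.725) and by 1.05 in KAT (SE 0.70, adjusted p = 0.273).

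Summed per kilobase, TIMP levels were 221 ± 27.8 in KPT, 408 ± 58.2 in KAT and 402 ± 82.4 in KPAT (mean ± SD, n = 5), and ADAMTS levels were 41.2 ± 6.73, 84.0 ± 24.1 and 81.5 ± 22.7. In both families every KAT and KPAT tumour was above every KPT tumour. MMP sums did not follow that order, at 741 ± 291, 596 ± 206 and 631 ± 145. Mmp7 alone made up a mean of 59.01% of the MMP sum in KPT, 23.6% in KAT and 31.5% in KPAT. The MMP sum without Mmp7 was 259 ± 55.1 in KPT, 440 ± 103 in KAT and 422 ± 102 in KPAT. In that sum every KPAT tumour was above every KPT tumour, and of KAT only KAT 1 lay inside the KPT range. The ratio of the MMP to the TIMP sum was 3.35 ± 1.14 in KPT, 1.5 ± 0.65 in KAT and 1.68 ± 0.71 in KPAT. Without Mmp7 it was 1.17 ± 0.18, 1.09 ± 0.29 and 1.07 ± 0.23, which differ by less than the spread between tumours. These sums are descriptions and were not tested.

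**Figure D4:**
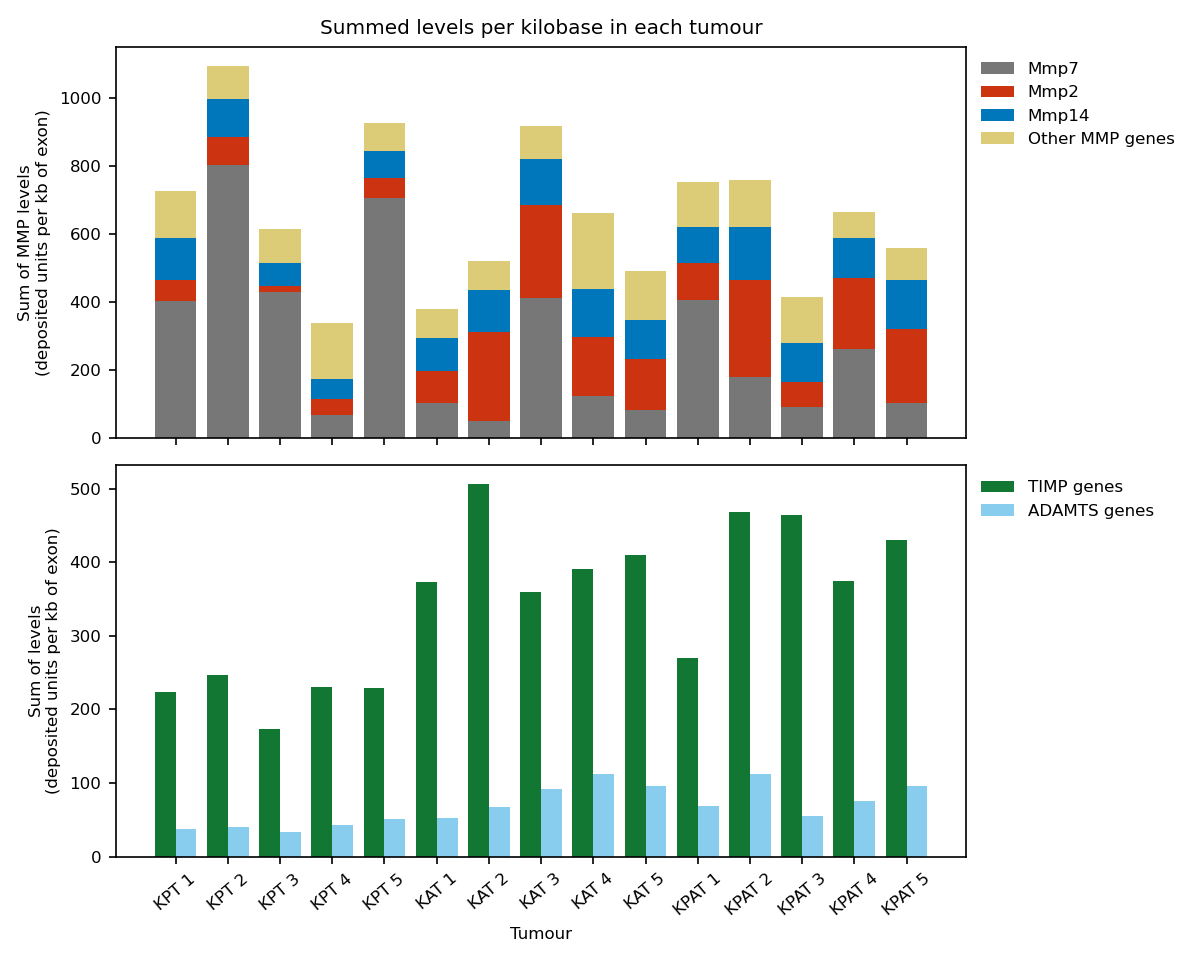
Sum of deposited levels per kilobase of exon in each tumour, for MMPs split into Mmp7, Mmp2, Mmp14 and the rest (upper panel) and for TIMP and ADAMTS genes (lower panel). Mmp7 makes up most of the bar in 4 of 5 KPT tumours, and KPT 4 has the lowest MMP sum at 339 units per kb.

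A pair of protease to inhibitor ratios was tested within tumours, where library scaling cancels. The log2 ratio of Mmp14 to Timp2 differed from KPT by -0.28 in KPAT and -0.16 in KAT (exact two-sided permutation test, adjusted p = 0.619 and 0.635). The log2 ratio of Mmp9 to Timp1 was higher than in KPT by 1.63 in KAT (exact permutation p = 0.0317, adjusted p = 0.190 over 6 tests) and by 1.25 in KPAT (exact permutation p = 0.0635, adjusted p = 0.190). Without KAT 2 the KAT value was 1.94 with an adjusted p of 0.0476. In the fits that left out 1 tumour no other ratio passed.

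Part of the MMP family lies in a cluster on chromosome 9 (GRCm38, chr9:7272514-7699585). The 427.1 kb hold 9 neighbouring protease genes, of which 7 were in the table: Mmp13, Mmp12, Mmp3, Mmp10, Mmp8, Mmp20 and Mmp7. The values of Mmp13 and Mmp10, which stood out in KPT 4, and of their neighbour Mmp12 are given by a choice made after the values were seen. Mmp13 (collagenase 3) was at 3.11, 19.6, 7.61, 152 and 20.2 in KPT, 26.5, 11.2, 3.55, 27.6 and 20.8 in KAT and 19.5, 30.05, 94.0, 10.3 and 20.7 in KPAT. Mmp10 (stromelysin 2), which like Mmp13 and Mmp12 was not called, was at 7.78, 6.27, 5.40, 49.0 and 6.55 in KPT, 7.03, 12.4, 3.45, 45 and 15.7 in KAT and 10.8, 15.5, 39.1, 3.69 and 2.25 in KPAT. KPT 4 was the highest of all 15 tumours for both genes, and among KPT it was the highest for Mmp3 as well. KPAT 3 was the highest KPAT tumour for both. Mmp12 was at 11.8, 16.6, 25.2, 11.8 and 50.7 in KPT, 86.8, 52.5, 17.8, 167 and 94.9 in KAT and 68.6, 80.1, 122, 14.2 and 16.1 in KPAT. In KPT 4 Mmp12 was the lowest of the 15, and Mmp7 and Mmp8 were the lowest of KPT, so the cluster did not move as a block in that tumour.

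**Figure D5:**
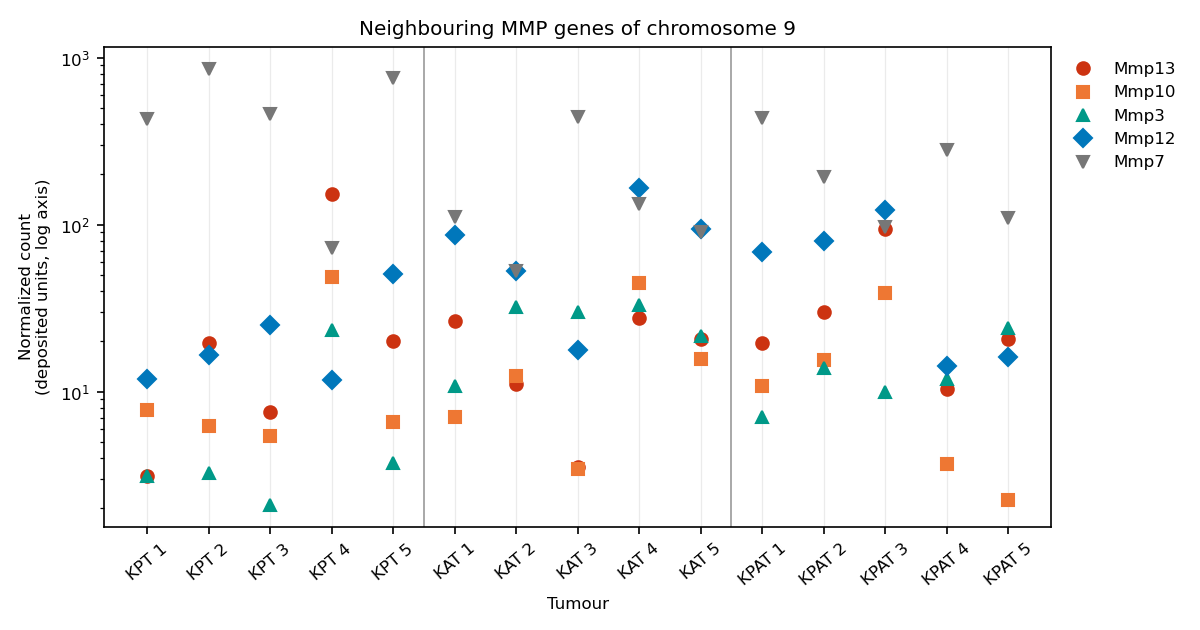
Deposited normalized counts (log axis) of 5 neighbouring MMP genes of chromosome 9 in each of 15 tumours. In KPT 4, Mmp13, Mmp10 and Mmp3 are at 152, 49.0 and 23.5, above every other KPT tumour, while Mmp7 at 72.8 is the lowest of KPT.

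Promoter sequences are shown for the cluster because its members were the only ones with a match to the AP-1 element, the binding site of Fos and Jun proteins long known from collagenase and stromelysin promoters. RefSeq windows (GRCm38.p6, 250 bases before to 50 after the start) were found for 28 of 42 members, in 31 windows. Not matched were Adamts4, Adamts5, Adamts6, Adamts7, Adamts8, Adamts10, Adamts15, Adamts16, Adamts19, Mmp2, Mmp9, Mmp16, Mmp17 and Mmp19. The AP-1 element TGAGTCA, searched on both strands, was in 5 of 31 member windows (16.1%) and in 5.20% of the 32851 windows of the table. The ETS element AGGAAG was in 13 of 31 (41.9%) and in 35.4% of all, and the TATA element TATAAA was in 8 of 31 (25.8%) and in 13.6% of all. In the stretches below, from 120 bases before the start to 30 bases from it on the plus strand, capitals mark AP-1 and TATAAA matches. No AP-1 match shared a base with an ETS or TATAAA match. Only Mmp3 among them was called in a comparison; Mmp13, Mmp12, Mmp10 and Mmp7 are shown for the match.
Mmp13: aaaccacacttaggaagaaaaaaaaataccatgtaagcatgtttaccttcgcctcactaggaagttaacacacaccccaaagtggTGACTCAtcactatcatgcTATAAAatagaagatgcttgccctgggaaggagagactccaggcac
Mmp12: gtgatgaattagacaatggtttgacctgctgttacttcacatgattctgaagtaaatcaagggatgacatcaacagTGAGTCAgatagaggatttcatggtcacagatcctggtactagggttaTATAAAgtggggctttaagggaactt
Mmp3: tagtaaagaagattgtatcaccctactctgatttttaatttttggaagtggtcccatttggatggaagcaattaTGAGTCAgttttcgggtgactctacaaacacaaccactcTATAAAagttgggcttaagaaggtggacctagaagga
Mmp10: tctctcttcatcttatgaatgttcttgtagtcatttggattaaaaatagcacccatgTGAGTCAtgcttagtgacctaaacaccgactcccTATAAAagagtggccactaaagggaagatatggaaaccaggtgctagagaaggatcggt
Mmp7: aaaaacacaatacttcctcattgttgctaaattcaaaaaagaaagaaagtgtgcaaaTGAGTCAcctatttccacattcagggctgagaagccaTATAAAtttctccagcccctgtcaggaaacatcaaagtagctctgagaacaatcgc

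The stretches are Mmp13 chr9:7272394-7272543, Mmp12 chr9:7347254-7347403, Mmp3 chr9:7445702-7445851, Mmp10 chr9:7502222-7502371 and Mmp7 chr9:7691970-7692119. The first base of the AP-1 match lay 63 bases before the start in Mmp10 and Mmp7, 46 in Mmp3, 44 in Mmp12 and 35 in Mmp13, where it read on the minus strand. TATAAA followed within the stretch in all 5, in Mmp12 from base 5 after the start. The same 5 genes had unlike levels: in KPT 4 Mmp13, Mmp10 and Mmp3 were high while Mmp12 and Mmp7 were low. A match to these letters is a description and not a measured binding site. Of 8 genes for AP-1 subunits, 0 rose and 2 fell in each comparison with KPT. Over all tested genes, 7.4% fell in KPAT and 13.3% in KAT. Jund had log2 changes of -0.87 (SE 0.25, adjusted p = 0.0256) in KPAT and -1.02 (SE 0.25, adjusted p = 0.00746) in KAT, and Atf3 of -1.54 (SE 0.50, adjusted p = 0.0457) and -1.44 (SE 0.50, adjusted p = 0.0408).

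Other neighbouring members lay in pairs. Adamts1 and Adamts5 lie within 108.0 kb on chromosome 16 (chr16:85793827-85901828), and neither was called. Adamts15 and Adamts8 lie within 64.7 kb on chromosome 9 (chr9:30899155-30963838); Adamts15 was called in KPAT and Adamts8 in KAT.

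Genes that switch these enzymes on or hold them back were counted from lists of pathway genes. The shares over all tested genes were 16.5% called in KPAT against KPT and 28.9% in KAT against KPT. Of 10 tested genes of the plasminogen system, 1 rose in KPAT and 2 rose and 2 fell in KAT. Plau, the urokinase that starts the plasmin cascade, rose by 1.68 (SE 0.37, adjusted p = 0.00943) in KPAT and 1.98 (SE 0.37, adjusted p = 0.00181) in KAT. S100a10, a plasminogen receptor subunit, fell in KAT with a log2 change of -0.96 (SE 0.23, adjusted p = 0.00692). Of 4 proprotein convertases, which can activate membrane-anchored MMPs and ADAMTS precursors, only Pcsk7 was called, at 0.50 (SE 0.10, adjusted p = 0.0073) in KPAT and 0.62 (SE 0.10, adjusted p = 0.000967) in KAT. Of 6 other inhibitors and inducers, 3 rose and 2 fell in KPAT, and 3 rose and 1 fell in KAT. Reck, a membrane-anchored MMP inhibitor, rose by 1.57 (SE 0.40, adjusted p = 0.0174) and 2.07 (SE 0.40, adjusted p = 0.00218). Bsg, which can induce MMPs in fibroblasts, changed by -0.79 (SE 0.21, adjusted p = 0.022) in KPAT and was called lower in KAT as well. A2m, a protease trap of plasma, rose in KAT by 3.33 (SE 0.63, adjusted p = 0.00186) and was called in KPAT too.

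Related proteases mostly rose where they were called. Over all tested genes, 16.5% were called in KPAT against KPT and 28.9% in KAT against KPT. The number of calls below does not set related proteases apart from these shares. Of 11 ADAM genes 3 rose in KPAT and 4 in KAT, with 0 lower. Adam19 rose by 1.34 (SE 0.29, adjusted p = 0.0083) in KPAT and was called higher in KAT as well. Adam33 rose by 2.69 (SE 0.39, adjusted p = 0.000403) in KAT and was not called in KPAT. Of 7 ADAMTS-like genes, which lack the protease domain, 1 rose in KPAT and 2 in KAT, led by Adamtsl2 at 2.45 (SE 0.46, adjusted p = 0.00509) and 2.23 (SE 0.46, adjusted p = 0.00334). Of 11 cathepsins and cystatins 2 rose in KPAT and 4 in KAT. Ctsk, a collagen-degrading cathepsin, rose by 1.57 (SE 0.40, adjusted p = 0.0173) in KPAT and was called higher in KAT as well. Ctss, of antigen-presenting cells, rose by 1.17 (SE 0.22, adjusted p = 0.00193) in KAT and was not called in KPAT. Of 6 astacins and their enhancers only Bmp1, the procollagen C-proteinase, was called, at 0.81 (SE 0.19, adjusted p = 0.0123) and 1.01 (SE 0.19, adjusted p = 0.00178). Of 9 membrane serine proteases and their inhibitors 0 were called in KPAT, while in KAT Fap, a fibroblast peptidase, rose by 1.90 (SE 0.63, adjusted p = 0.0358) and Spint2, an epithelial inhibitor, fell with a log2 change of -0.63 (SE 0.19, adjusted p = 0.0242).

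Many of the substrates of these proteases rose as well. Of 13 tested collagen genes, 12 rose in KPAT and 9 in KAT, with 0 lower. Over all tested genes, 9.13% rose in KPAT and 15.6% in KAT. Col6a3 rose by 2.30 (SE 0.38, adjusted p = 0.00289) in KPAT and by 2.18 (SE 0.38, adjusted p = 0.00113) in KAT. Of 15 proteoglycans and glycoproteins, 8 rose and 1 fell in KPAT and 9 rose and 1 fell in KAT. Fbn1, the fibrillin of microfibrils, rose by 1.91 (SE 0.36, adjusted p = 0.00517) and 2.13 (SE 0.36, adjusted p = 0.00105). The 1 gene that fell in both was Acan, in KPAT named outside the rule after its value was seen, the aggrecan cut by Adamts4 and Adamts5, with log2 changes of -3.10 (SE 0.97, adjusted p = 0.0411) and -6.01 (SE 0.97, adjusted p = 0.000771). The collagen list shares Col1a1, Col1a2, Col3a1 and Col5a1 with the fibroblast markers, of which 7 of 12 rose in KPAT and 11 of 12 in KAT. The part of fibroblast content in these counts was not tested beyond the covariate fits given above.

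Between KPAT and KAT, which differ in Trp53 with Arf floxed in both, 0 of 40 members were called by limma, and 0 by edgeR or DESeq2 on recovered reads. Over all genes 0.0481% were called by limma (0.036% higher, 0.012% lower). At an unadjusted p under 0.05 there were 3 members: Mmp16 higher in KPAT by 1.33 (SE 0.56, adjusted p = 0.41), Adamts3 at -1.11 (SE 0.51, adjusted p = 0.452) and Mmp11 at -0.61 (SE 0.26, adjusted p = 0.413). Mmp16 was the only member without overlap between these groups, where 2.72% of all genes had none (1.42% higher, 1.3% lower). The member median was -0.18, beside -0.003 for all genes. The SE of these differences ran from 0.19 for Mmp14 to 1.2 for Adamts19, so moderate differences in single members were not detectable with 5 tumours a group.

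Members without any overlap between groups numbered 9 in KPAT against KPT and 16 in KAT against KPT, all higher. Over all tested genes 9.97% showed no overlap in the comparison of KPAT with KPT (5.03% higher, 4.93% lower) and 17.6% in that of KAT with KPT (9.24% higher, 8.38% lower). In KPAT these were Adamts2, Adamts6, Adamts7, Adamts10, Adamts16, Adamts20, Mmp16, Mmp19 and Timp2.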

How the data were processed

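Per the labels' protocols, libraries came from a TruSeq RNA kit and were run on an Illumina HiSeq4000. The submitters' processing notes name HISAT2 2.0.4 and the build mm10 (GRCm38). How reads were counted, with which use of strand, and how values were normalized is not stated in those sources. The deposited table holds the authors' normalized signal per Ensembl gene in 15 libraries. After multiplication by a factor for each library, 100% of these signal values came within 0.01 of whole reads. Depth was 14696138 to 26248484 reads, and counting error weighs most on members under 100 reads.

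The design assumed values on the scale of reads, so all were multiplied by 19.478. Genes with a mean of at least 10 on that scale (16648) were tested on log2(value + 1), which understates changes of low genes, by limma (version 3.58.1, R 4.3.3) with a mean for each group over 15 libraries and an intensity trend, two-sided, adjusted by Benjamini-Hochberg at 0.05. The SE is limma's moderated SE. The fit was tested on simulated data. Ratios used exact permutation over 252 assignments, and over fewer where a tumour of a compared group was left out. Symbols, for 20574 of 20636 genes, and union exon lengths came from GENCODE (GRCm38), promoters from RefSeq. Values in every tumour are given for members called in at least 1 comparison, Timp1 to Timp4 and the 5 MMP and 5 ADAMTS genes highest per kilobase, and up to 2 genes of a list by smallest p, with exceptions stated. Members and lists were chosen with earlier results of these data known. A further allele that all groups carried, and some of the exon overlaps of members with other genes, are not reported here. Alternatives included pseudocounts, level minimums, scalings, array weights, marker covariates, a replicate block, left-out tumours, edgeR 4.0.16 and DESeq2 1.42.0 on recovered reads. edgeR called 2706 genes in KPAT against KPT, 4684 in KAT against KPT and 7 in KPAT against KAT, with 16, 20 and 0 members. DESeq2 called 3861, 5712 and 284 genes, with 18, 26 and 0 members.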

Additional observations from a re-analysis of the deposited data

Results flagged for a closer look

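Each of the 42 members was examined in each of the 3 groups of 5 tumours. In 21 of these 126 sets of 5 values the highest or lowest stood apart from the other 4 by more than Dixon's 95% limit of 0.71. That limit flags about 1 in 20 sets of normally distributed values, whereas levels without a log were used here. Of the flagged values 19 were high and 2 low, so their number cannot be set against 1 in 20. Values are deposited normalized counts. Of these, 5 were in KPT 1, all high: Mmp15 at 445.8, Adamts8 at 3.81, Mmp25 at 1.55, Timp4 at 1.76 and Adamts13 at 0.752. KPT 1 also had the highest intestinal and neutrophil marker sums, whose part was not tested. In KPT 4, 3 neighbours of the chromosome 9 cluster were high, with Mmp13 at 152, Mmp10 at 49.0 and Mmp3 at 23.5. Low values were Adamts4 in KPT 3 at 7.50 and Adamts12 in KAT 1 at 34.5.

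The other KAT values were high: Mmp9 in KAT 4 at 216, Mmp7 in KAT 3 at 439.9, Mmp8 in KAT 2 at 6.53, Adamts19 in KAT 2 at 3.24 and Adamts13 in KAT 3 at 0.731. In KPAT they were Mmp16 in KPAT 5 at 15.5, Mmp13 in KPAT 3 at 94.0, Mmp24 in KPAT 3 at 5.12, Adamts4 in KPAT 2 at 90.9, Adamts3 in KPAT 2 at 4.56 and Mmp20 in KPAT 4 at 0.604.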

How the results depend on the processing

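With the fibroblast markers as a covariate, the share of tested genes called fell from 16.5% to 1.51% in KPAT against KPT and from 28.9% to 5.27% in KAT against KPT, the members called from 15 to 0 and from 18 to 1, and the member medians from 0.98 to 0.32 and from 1.10 to 0.41. Sign changes were followed only for members with an unadjusted p under 0.05 in the main fit of that comparison. Among those members, the differences changed sign for Adamts15 (-0.15) and Mmp2 (-0.12) in KPAT. In KAT they changed sign for Adamts14 (-0.0036), Adamts15 (-0.63), Adamts19 (-0.83), Adamts5 (-0.28), Mmp14 (-0.10), Mmp17 (-0.14) and Mmp2 (-0.18). With the neutrophil covariate 3.42% of genes and 4 members were called in KPAT against KPT. The cause was not tested. Fits of only the groups compared called 10.9% of genes in KPAT against KPT and 0.0901% in KPAT against KAT, beside 0.0481% from all tumours. In KPAT against KAT, array weights gave 3.09% and DESeq2 1.71%. Without KPT 3, KAT 2 and KPAT 5 the shares were 10.4% and 0.102%. Leaving out single tumours gave 10.1% (without KPAT 2) to 17.4% of genes and 10 to 14 members in KPAT against KPT, and 0.042% to 0.216% of genes (highest without KAT 2) in KPAT against KAT. In such fits the log2 ratio of Mmp9 to Timp1 ran from 1.18 to 1.94 in KAT against KPT, that of Mmp14 to Timp2 from -0.24 to 0.021 in KPAT against KAT and that of Mmp9 to Timp1 from -0.69 to 0.073 in KPAT against KAT; the last pair turned sign without KAT 4, and Mmp14 to Timp2 also without KPAT 5. The next counts cover all settings, but only members with an unadjusted p under 0.05 in the main fit of a comparison. Their values kept direction and side of the threshold 1344 times, newly passed 61 times, no longer passed 137 times and turned sign 9 times. The remaining members were not counted.

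The labels number the tumours 1 to 5 in each group. Of 15 same-numbered pairs, 5 had a correlation of their deviations over 0.1, in a range of -0.209 to 0.246. In 4 of the 15 the best match in the other group had the same number. No reference was computed for these values, so they do not decide whether same-numbered tumours deviated together. With the replicate block the shares of genes called were 13.5%, 25.9% and 0.042%, and 14, 17 and 0 members were called. Depth limits members such as Adamts19, Adamts20, Mmp16, Mmp25 and Timp4.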
